A study of Homo sapiens with 32 samples.

Results

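The enzymes that write, copy and remove DNA methylation, and the CXXC proteins that work with them, were examined here for m6A on their own transcripts. The 9 genes were DNMT1, DNMT3A, DNMT3B, UHRF1, TET1, TET2, TET3, CXXC4 and CXXC5, out of 13418 protein-coding genes with at least 1 m6A peak in any library. A peak was counted for a gene where it overlapped the RefSeq gene body (GRCh38.p14) by at least 1 bp, which gave 605 of the 474004 peaks. The smallest overlap was 233 bp, and the nearest peaks left out lay 65 bp beyond CXXC5 and 136 bp beyond TET3. The genes were chosen by their place in the pathway and by where their peaks had been called, so those calls are given as a description with no test.

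m6A was mapped by MeRIP-seq, in which an antibody against m6A enriches RNA fragments (IP) that are compared with the unenriched Input. 786-O is a clear cell renal cell carcinoma line, and RPTEC is a line of renal proximal tubule epithelial cells immortalized with hTERT. Each cell line had 4 lines with 2 IP libraries each. These were the WT parent, the CRISPR knockout clones SETD2KO-1 and SETD2KO-2, which lack the H3K36me3 writer SETD2, and SETD2KO-1R, a clone of SETD2KO-1 that re-expresses full-length SETD2. WT and SETD2KO-1R, which both make SETD2, are grouped as SETD2-expressing, giving 4 SETD2-expressing and 4 SETD2KO libraries per cell line. Each knockout and rescue is a single clone, so clone and SETD2 status are separated only by the agreement of clones. The run name differs between 786-O and RPTEC lists, so cell line and run cannot be told apart. The replicate numbers come from the labels, which do not say whether they are separate cultures, so p-values measure only the spread between these libraries.

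The lists held 25710 to 39670 peaks in 786-O and 19249 to 31207 in RPTEC, and the member genes took 0.0975% to 0.158% of each list. The methods state a lowest number of reads per sample, but no read counts were given, so the depth behind a peak is unknown. For an uncalled gene, a lack of m6A, a low transcript level and low depth cannot be told apart. Of 9 renal epithelial markers, 6 were called in all 16 libraries, as were 34.5% of all genes with a peak, while among immune, endothelial and fibroblast markers PTPRC, CD3E, PECAM1, VWF, COL1A2 and DCN had no peak in any, CD68 was called in 15, PDGFRB in 9, COL1A1 in 7 and CDH5 in 4. SETD2 itself carried 8 and 10 peaks in 786-O WT, 5 and 10 in SETD2KO-1, 5 and 4 in SETD2KO-2, and 7 and 9 in SETD2KO-1R. In RPTEC it carried 7 and 10 peaks in WT, 6 and 4 in SETD2KO-1, 4 and 5 in SETD2KO-2, and 11 and 10 in SETD2KO-1R. There the groups did not overlap, with SETD2KO lower, which is the pattern of 1.41% of genes tested in RPTEC. SETD2KO-1R carries a SETD2 transgene, and the lists do not tell its transcript from that of the edited gene. m6A on the transcript of an edited gene is no check of its protein.

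DNMT1 copies methylation onto the new DNA strand after replication, and UHRF1 brings it there by reading the half-methylated site. DNMT3A and DNMT3B set new methylation and both have a PWWP domain that reads H3K36 methylation, the family of marks to which the product of SETD2 belongs. TET1, TET2 and TET3 oxidize methylated cytosine as the first step of its removal. TET1 and TET3 can carry their own CXXC zinc finger, which binds unmethylated CpG, while TET2 has lost it and is partnered by the CXXC proteins CXXC4 and CXXC5.

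Start windows of CXXC5 and of CXXC4-AS1 that overlapped called regions are shown first. The window of 250 bases before to 50 after the start of CXXC4-AS1, an antisense RNA gene that starts within CXXC4, overlapped the main CXXC4 region by 208 bp. It lies on the plus strand at chr4:104490715-104491014, and CXXC4 is read from the other strand. Capitals mark the bases under the called region.
CXXC4-AS1: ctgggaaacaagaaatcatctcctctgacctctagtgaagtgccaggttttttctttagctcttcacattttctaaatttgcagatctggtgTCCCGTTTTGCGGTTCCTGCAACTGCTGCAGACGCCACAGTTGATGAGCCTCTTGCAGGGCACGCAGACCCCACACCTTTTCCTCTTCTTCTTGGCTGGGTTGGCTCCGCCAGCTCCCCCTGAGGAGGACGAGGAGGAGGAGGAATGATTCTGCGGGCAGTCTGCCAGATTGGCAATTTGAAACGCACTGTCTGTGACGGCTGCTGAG
Of 4 CXXC5 start windows that overlapped called regions, the 2 with the largest overlap are printed. The upstream one on the plus strand, chr5:139648099-139648398, lay wholly inside a region that was called in 13 of 16 libraries. The downstream one, chr5:139659305-139659604, shared 230 bp with a region called in 8. In these, capitals mark matches to GGACT, a common core of m6A sites, or its reverse complement AGTCC.
CXXC5 upstream window: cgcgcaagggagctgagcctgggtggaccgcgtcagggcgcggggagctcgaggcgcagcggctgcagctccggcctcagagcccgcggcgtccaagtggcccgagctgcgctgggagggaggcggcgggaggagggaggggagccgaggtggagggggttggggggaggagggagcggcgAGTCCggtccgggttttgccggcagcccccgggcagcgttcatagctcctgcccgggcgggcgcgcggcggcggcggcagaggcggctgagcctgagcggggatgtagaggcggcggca
CXXC5 downstream window: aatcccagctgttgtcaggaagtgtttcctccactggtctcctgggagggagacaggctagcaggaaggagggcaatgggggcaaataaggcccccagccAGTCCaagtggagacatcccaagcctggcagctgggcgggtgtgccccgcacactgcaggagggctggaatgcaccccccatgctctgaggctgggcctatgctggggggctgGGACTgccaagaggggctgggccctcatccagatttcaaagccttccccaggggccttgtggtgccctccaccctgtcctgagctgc
With both strands counted, the upstream CXXC5 window had 1 match, an AGTCC, and the downstream one had 2, a GGACT and an AGTCC. CXXC5 is read from the plus strand, so only GGACT is in the sense of its transcript. The CXXC4-AS1 window had 0, but it covers 208 of the 661 bp of the main CXXC4 region. The RPTEC summits of that region lie past the end of the window, so its count does not describe the sequence at them. Of the CXXC5 windows not printed, that at chr5:139647654-139647953 shared 60 bp with the region called in 13 libraries and had 1 match, and that at chr5:139648701-139649000 had at most 47 bp in a region and 0 matches. Over all 34943 RefSeq start windows of 300 bases, 44.1% held a match on either strand. GC content was 77% in the upstream CXXC5 window, above 93.6% of all windows, 63.7% in the downstream one and 53% in the CXXC4-AS1 window, against a median of 58.7%.

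CXXC4 was called in each of the 8 SETD2KO libraries and was absent from the 8 SETD2-expressing ones. In 786-O it had 2 and 1 peaks in SETD2KO-1, 2 and 2 in SETD2KO-2, and 0 in both WT and both SETD2KO-1R libraries. In RPTEC it had 2 and 1 peaks in SETD2KO-1, 2 and 1 in SETD2KO-2, and again 0 in WT and SETD2KO-1R. Knockout and expressing libraries thus did not overlap in either cell line, and the rescue of SETD2KO-1 was at 0 like its WT parent. The means were 1.75 ± 0.5 peaks in 786-O SETD2KO and 1.5 ± 0.577 in RPTEC SETD2KO (SD, n = 4 each).

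CXXC4 was the 1 gene of 13418 with this pattern over both cell lines (0.00745%). Within a cell line the pattern was less rare, with 53 of 12428 genes in 786-O (0.426%) and 63 of 12183 in RPTEC (0.517%) called in each of the 4 SETD2KO libraries and absent from the 4 SETD2-expressing ones. By peak number, all 4 SETD2KO libraries exceeded all 4 SETD2-expressing ones for 1.52% of genes in 786-O and 1.01% in RPTEC, and CXXC4 was the only member among them. CXXC4 was picked because of this pattern, so no test was applied to it. Of 4 fibroblast markers, PDGFRB had 1 or 2 peaks in each RPTEC SETD2KO library and 0 in the 4 RPTEC SETD2-expressing ones, while in 786-O its groups overlapped, COL1A1 overlapped in both, and COL1A2 and DCN were at 0. All libraries are of cultured cell lines, and a link of these marker calls to the CXXC4 calls was not tested. SLC35G1 and TESMIN, found after their values were seen, showed the reverse, with a peak in each SETD2-expressing library and none in SETD2KO.

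Its 13 peaks fell into 2 regions close to the start of the 26.6 kb gene, and no other part of the gene held a peak. The main region, chr4:104490807-104491467, was centred 3.76 kb from the start, at 14.1% of the gene length, and was called in all 8 SETD2KO libraries. It was 1 of 9 regions among 99514 merged regions called in every SETD2KO and no SETD2-expressing library (0.00904%). Per cell line, 0.478% of regions in 786-O and 0.282% in RPTEC followed it. The second region, chr4:104491628-104492266, lay 2.95 kb from the start and was called in 5 SETD2KO libraries, 3 of 786-O and 2 of RPTEC.

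The CXXC4 peaks were of middling to low score. The main region ranked at the 22.5th and 37.2nd percentiles of their lists in 786-O SETD2KO-1, and at the 59.6th and 72.6th in SETD2KO-2. In RPTEC it ranked at 51.1 and 23.7 in SETD2KO-1 and at 15.7 and 67.5 in SETD2KO-2. The second region ranked between 3.22 and 47.6. When only the upper 50% of each list was kept, CXXC4 stayed called in 4 of 8 SETD2KO libraries, and in 5 when lists were cut to equal length, with 0 of 8 SETD2-expressing libraries in both. Summits of the main region in RPTEC lay at 104491017, 104491040, 104491041 and 104491044, while in 786-O they were spread from 104490973 to 104491326.

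The second CXXC4 region lies wholly in CXXC4-AS1 and the main region with 503 of its 661 bp, and the lists carry no strand, so the sense and the antisense transcript cannot be told apart. No peak lay in the rest of CXXC4-AS1 in any library, and the nearest peak outside the CXXC4 gene body was 651455 bp away.

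**Figure D1:**
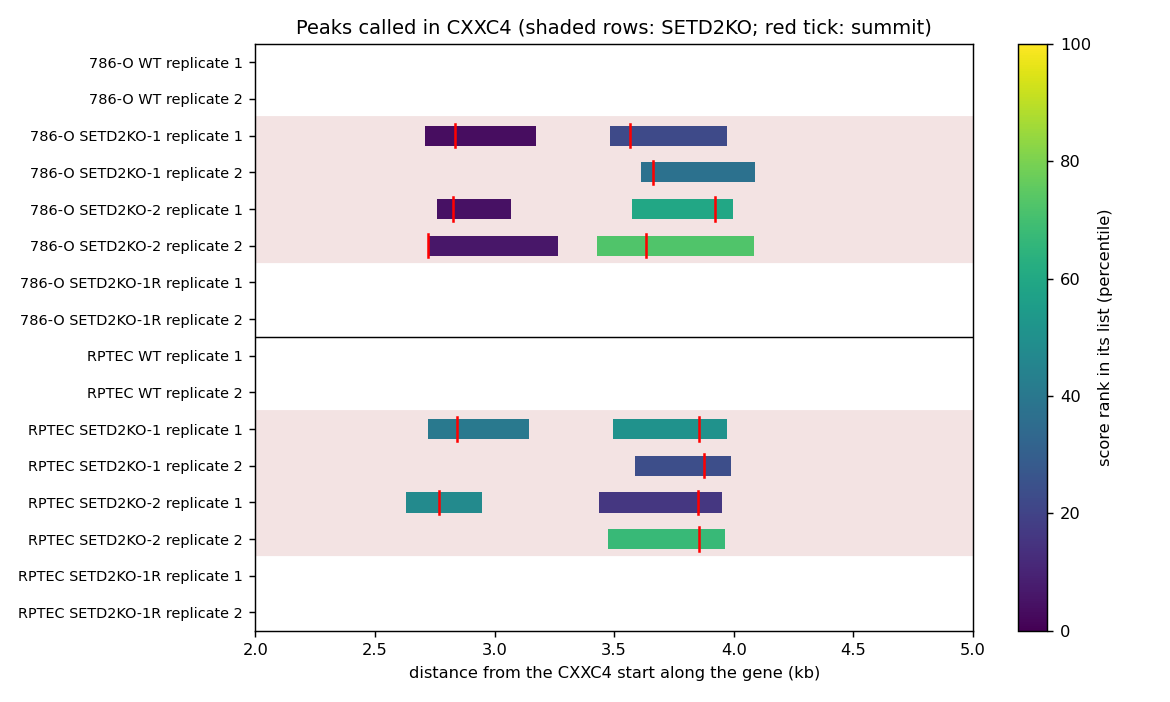
Peaks called in CXXC4 in each of the 16 libraries, by distance from the gene start in kb, coloured by the rank of the score in its own list (percentile), with a red tick at each summit. The 8 shaded SETD2KO rows hold 13 peaks between 2 and 5 kb, the 8 SETD2-expressing rows hold 0, and no peak lay elsewhere in the gene.

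CXXC5, the other CXXC partner of TET2, was densely called in both cell lines and did not separate by SETD2 status. In 786-O it had 9 and 9 peaks in WT, 8 and 9 in SETD2KO-1, 16 and 6 in SETD2KO-2, and 12 and 6 in SETD2KO-1R. In RPTEC it had 7 and 1 in WT, 2 and 9 in SETD2KO-1, 4 and 4 in SETD2KO-2, and 4 and 6 in SETD2KO-1R. The means of SETD2KO and SETD2-expressing libraries were 9.75 ± 4.35 and 9 ± 2.45 in 786-O, and 4.75 ± 2.99 and 4.5 ± 2.65 in RPTEC (SD, n = 4 each). The differences of 0.75 peaks in 786-O and 0.25 in RPTEC were smaller than the SD of either group. With 1.91 peaks per 10 kb and library, it was the most densely called of the 9 genes, and TET1, with 0.102, the least.

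Between cell lines CXXC5 had the larger gap, with a mean of 9.38 ± 3.29 peaks in 786-O and 4.62 ± 2.62 in RPTEC (SD, n = 8 each). The difference of 4.75 peaks was larger than either SD, but the cell lines overlapped, at 6 to 16 and 1 to 9 peaks. Over all genes, 3.44% were called higher in 786-O and 1.92% lower at an adjusted p under 0.05 by two-sided exact permutation. The share of called genes that were higher in 786-O was 64.3%, but 34.4% with lists cut to equal length, 45.6% per 10000 peaks of the list and 76.7% by base pairs covered. Likewise, 0.924% of genes had all 8 786-O libraries above all 8 RPTEC libraries and 0.946% had all 8 below, with none of the members in either set. Lists were on the whole longer in 786-O, with overlapping ranges, and this was not removed from the peak numbers.

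The CXXC5 start region, chr5:139647894-139648702, was called in all 8 786-O libraries and in 5 of 8 RPTEC libraries, with a median rank at the 82.2nd percentile. The next region, 1.86 kb from the start, was called in 6 libraries of 786-O and 1 of RPTEC. It also overlaps CXXC5-AS1, so with no strand in the lists the sense and the antisense transcript cannot be told apart there. Near the end of the gene, the region at 35.7 kb was called in all 16 libraries with a median rank of 90.4, and that at 33.4 kb in 15. All 5 CXXC5 regions between 1.86 and 16 kb that were called in at least 4 libraries had fewer calls in RPTEC than in 786-O. The share of all regions with fewer calls in RPTEC is not given here. Over all merged regions, 33.8% were called in 786-O alone and 21.6% in RPTEC alone, so the same tilt was present there.

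Among the TET enzymes, TET1 was called mostly in RPTEC. It had 0 peaks in 6 of 8 786-O libraries, with 1 peak in SETD2KO-2 replicate 2 and 1 in SETD2KO-1R replicate 1. In RPTEC it had 6 and 2 peaks in WT, 2 and 0 in SETD2KO-1, 3 and 1 in SETD2KO-2, and 4 and 2 in SETD2KO-1R. The groups overlapped at 0 and 1 peaks, through RPTEC SETD2KO-1 replicate 2 and SETD2KO-2 replicate 2. The means were 0.25 ± 0.463 and 2.5 ± 1.85 (SD, n = 8 each).

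TET1 peaks were also weak, with a median score rank at the 21.9th percentile against 52.3 for all peaks in protein-coding genes. The region near the end of TET1, chr10:68690688-68691797, was called in 7 RPTEC libraries and 1 of 786-O, and that at chr10:68571969-68573302, 12.3 kb from the start, in 5 of RPTEC and 0 of 786-O. The latter was called in both WT and both SETD2KO-1R libraries of RPTEC and in 1 of its 4 SETD2KO libraries. In peak number, RPTEC SETD2KO libraries had a mean of 1.5 ± 1.29 and SETD2-expressing ones 3.5 ± 1.91 (SD, n = 4 each), and the groups overlapped.

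TET2 had 5 and 6 peaks in 786-O WT, 5 and 6 in SETD2KO-1, 6 and 8 in SETD2KO-2, and 4 and 4 in SETD2KO-1R. In RPTEC it had 8 and 4 in WT, 5 and 5 in SETD2KO-1, 6 and 3 in SETD2KO-2, and 7 and 6 in SETD2KO-1R. The mean was 5.5 peaks in both cell lines. SETD2KO libraries had 1.5 more peaks than SETD2-expressing ones in 786-O and 1.5 fewer in RPTEC, and the groups overlapped in both cell lines.

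Of the 7 TET2 regions, 2 were called in all 16 libraries, at chr4:105235103-105237182 and chr4:105274805-105276567, with median ranks of 82.4 and 75.9. Over all regions, 4.24% were called in all 16 libraries. All 7 TET2 regions were called in both cell lines, against 44.6% of all merged regions. The region at 47.3 kb, chr4:105192733-105193523, was absent from both 786-O SETD2KO-1R and both RPTEC WT libraries, and was called in 11 of the other 12. The 6 TET2 regions after the first also lie in TET2-AS1, so with no strand in the lists the 2 transcripts cannot be told apart there.

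TET3, the longest of the genes at 151.9 kb, had the most peaks, 149 over the 16 libraries. Counts ran from 6 to 12 with a median of 8 in 786-O and from 7 to 14 with a median of 10 in RPTEC. SETD2KO and SETD2-expressing libraries had means of 7.75 ± 1.26 and 9.5 ± 3 in 786-O, and 9.75 ± 3.1 and 10.2 ± 0.957 in RPTEC (SD, n = 4 each), with overlap in both. Between cell lines the difference, 786-O minus RPTEC, was -1.38 peaks. Its 24 regions included 3 called in all 16 libraries, 2.52, 63.2 and 118 kb from the start. The region at 118 kb, chr2:74100277-74102386, had the highest median rank of them, 80.1. The region at 138 kb overlaps the pseudogene FNBP1P1 and was called in 8 RPTEC and 4 of the 786-O libraries, and as copies can share reads, these calls are uncertain.

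Of the enzymes that set new methylation, DNMT3B was the sparsest in 786-O after TET1 and CXXC4. In 786-O it had 0 and 3 peaks in WT, 3 and 2 in SETD2KO-1, 3 and 0 in SETD2KO-2, and 2 and 0 in SETD2KO-1R. In RPTEC it had 1 and 0 in WT, 0 and 3 in SETD2KO-1, 1 and 0 in SETD2KO-2, and 1 and 2 in SETD2KO-1R. It was called in 3 of 4 SETD2KO and 2 of 4 SETD2-expressing libraries in 786-O, and in 2 and 3 in RPTEC, so the groups overlapped in both. Of its 9 regions, 6 were called in 1 library only, 66.7% against 37.2% of all merged regions.

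Where DNMT3B was called, the peaks in 1 region were strong. The region chr20:32780046-32780578, 17.9 kb from the start, was called in both 786-O SETD2KO-1 libraries, in SETD2KO-2 replicate 1, in SETD2KO-1R replicate 1 and in RPTEC SETD2KO-1 replicate 2. There it ranked between the 90.5th and 96.1st percentiles, and its 5 summits lay within 25 bp. Of 8 SETD2-expressing libraries, 1 called it, and neither WT line did. The region chr20:32786979-32787392 was called in 7 libraries, 3 SETD2KO and 4 SETD2-expressing, at ranks of 44.1 to 76.3.

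DNMT3A had 4 and 3 peaks in 786-O WT, 6 and 6 in SETD2KO-1, 5 and 1 in SETD2KO-2, and 2 and 1 in SETD2KO-1R. SETD2KO-1 thus stood above both WT and its own rescue, but SETD2KO-2 replicate 2 was at the level of the lowest rescue library. The means were 4.5 ± 2.38 in SETD2KO and 2.5 ± 1.29 in SETD2-expressing libraries (SD, n = 4 each). In RPTEC it had 0 and 1 peaks in WT, 1 and 3 in SETD2KO-1, 2 and 1 in SETD2KO-2, and 2 and 5 in SETD2KO-1R, so the groups overlapped there too. A region near the end of the gene, chr2:25234169-25234554, accounted for 14 of its 43 peaks, was called in 14 libraries and had a median rank of 88.4, with summits within 85 bp. The region at 68.3 kb was called in 5 of 8 786-O libraries and 0 of RPTEC.

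DNMT1, the maintenance enzyme, was called in every library, with 2 to 5 peaks in 786-O and 1 to 4 in RPTEC. SETD2KO and SETD2-expressing means were 3.5 ± 1.29 and 4.25 ± 0.957 in 786-O and 2.25 ± 1.26 and 2.25 ± 0.5 in RPTEC (SD, n = 4 each), with overlap in both. The mean was 3.88 ± 1.13 in 786-O and 2.25 ± 0.886 in RPTEC (SD, n = 8 each). The most frequent region, chr19:10140228-10140687 at 88.5% of the gene length, was called in 14 libraries, and 1 further region at 34.7 kb was called in 7 libraries of 786-O and 4 of RPTEC. The strongest was chr19:10166666-10166954, called in 4 libraries only, 3 of them of 786-O, at ranks of 96.8 to 99.7.

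UHRF1, which brings DNMT1 to its site, held the strongest peaks of the 9 genes, with a median rank at the 91.9th percentile and 96 of 108 peaks in the upper 50% of their lists. Its counts were 12 and 8 in 786-O WT, 5 and 10 in SETD2KO-1, 10 and 3 in SETD2KO-2, and 8 and 8 in SETD2KO-1R. In RPTEC they were 8 and 5, 3 and 9, 4 and 2, and 6 and 7 in the same order. SETD2KO means were 2 peaks lower in both cell lines, at 7 ± 3.56 against 9 ± 2 and at 4.5 ± 3.11 against 6.5 ± 1.29 (SD, n = 4 each), with wide overlap.

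The last UHRF1 region, chr19:4961234-4961659, was called in all 16 libraries, with ranks of 78.5 to 97.3. That at chr19:4953755-4954750 was called in 11 and had ranks of 97.1 to 99.9, among the strongest peaks of each list in which it appeared. The region chr19:4928940-4929315 was called in 5 libraries of 786-O, of WT and every other line, and in 0 of RPTEC. The region at 27.5 kb was absent from both 786-O WT libraries and called in 3 further 786-O libraries and 5 of RPTEC, at ranks of 92.8 to 98.2.

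**Figure D2:**
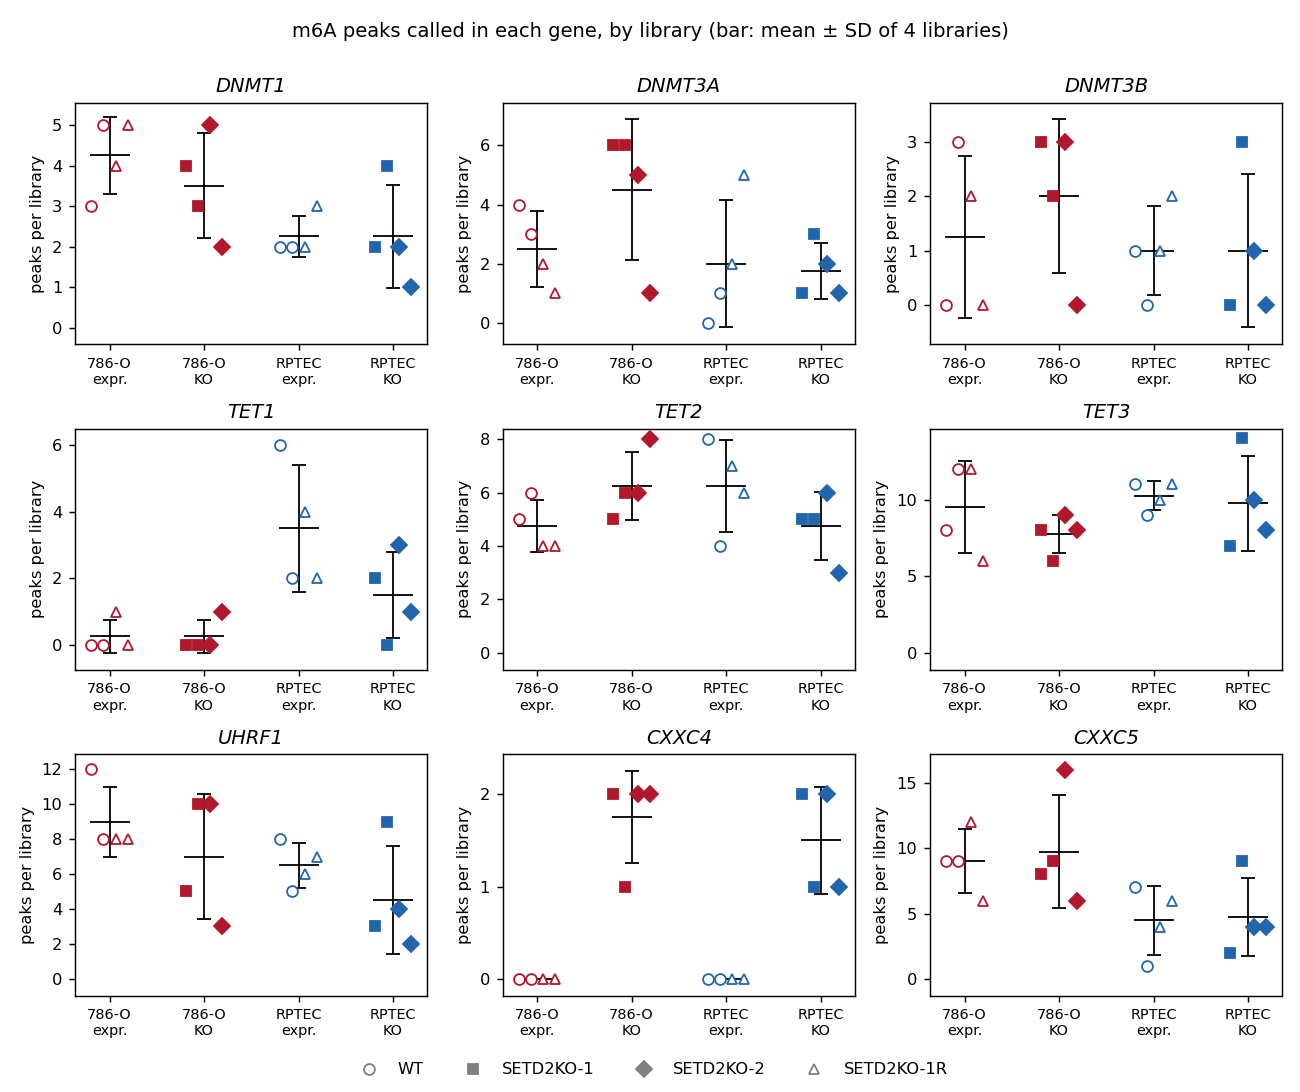
Peaks per library in each of the 9 genes, with 1 symbol per library, open for SETD2-expressing and filled for SETD2KO libraries, red for 786-O and blue for RPTEC, and bars for the mean ± SD of 4 libraries. CXXC4 is the 1 panel in which SETD2KO and SETD2-expressing libraries do not overlap, and TET1 is at 0 or 1 in all 786-O libraries.

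The comparison of SETD2KO with SETD2-expressing libraries called 0 genes at an adjusted p under 0.05 in either cell line by exact permutation, with 301 of 12428 genes at an unadjusted p under 0.05 in 786-O and 295 of 12183 in RPTEC. With 4 against 4 libraries the smallest p is 0.0286, which 301 or 295 genes at that level cannot bring under the threshold after adjustment over all genes. Of genes tested, 0.901% in 786-O and 1.41% in RPTEC had all 4 SETD2KO libraries below all 4 SETD2-expressing ones, and none of the 9 members was among them, while SETD2 was in RPTEC. The difference of the SETD2 differences between cell lines also called 0 genes, with 485 of 13418 at an unadjusted p under 0.05.

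**Figure D3:**
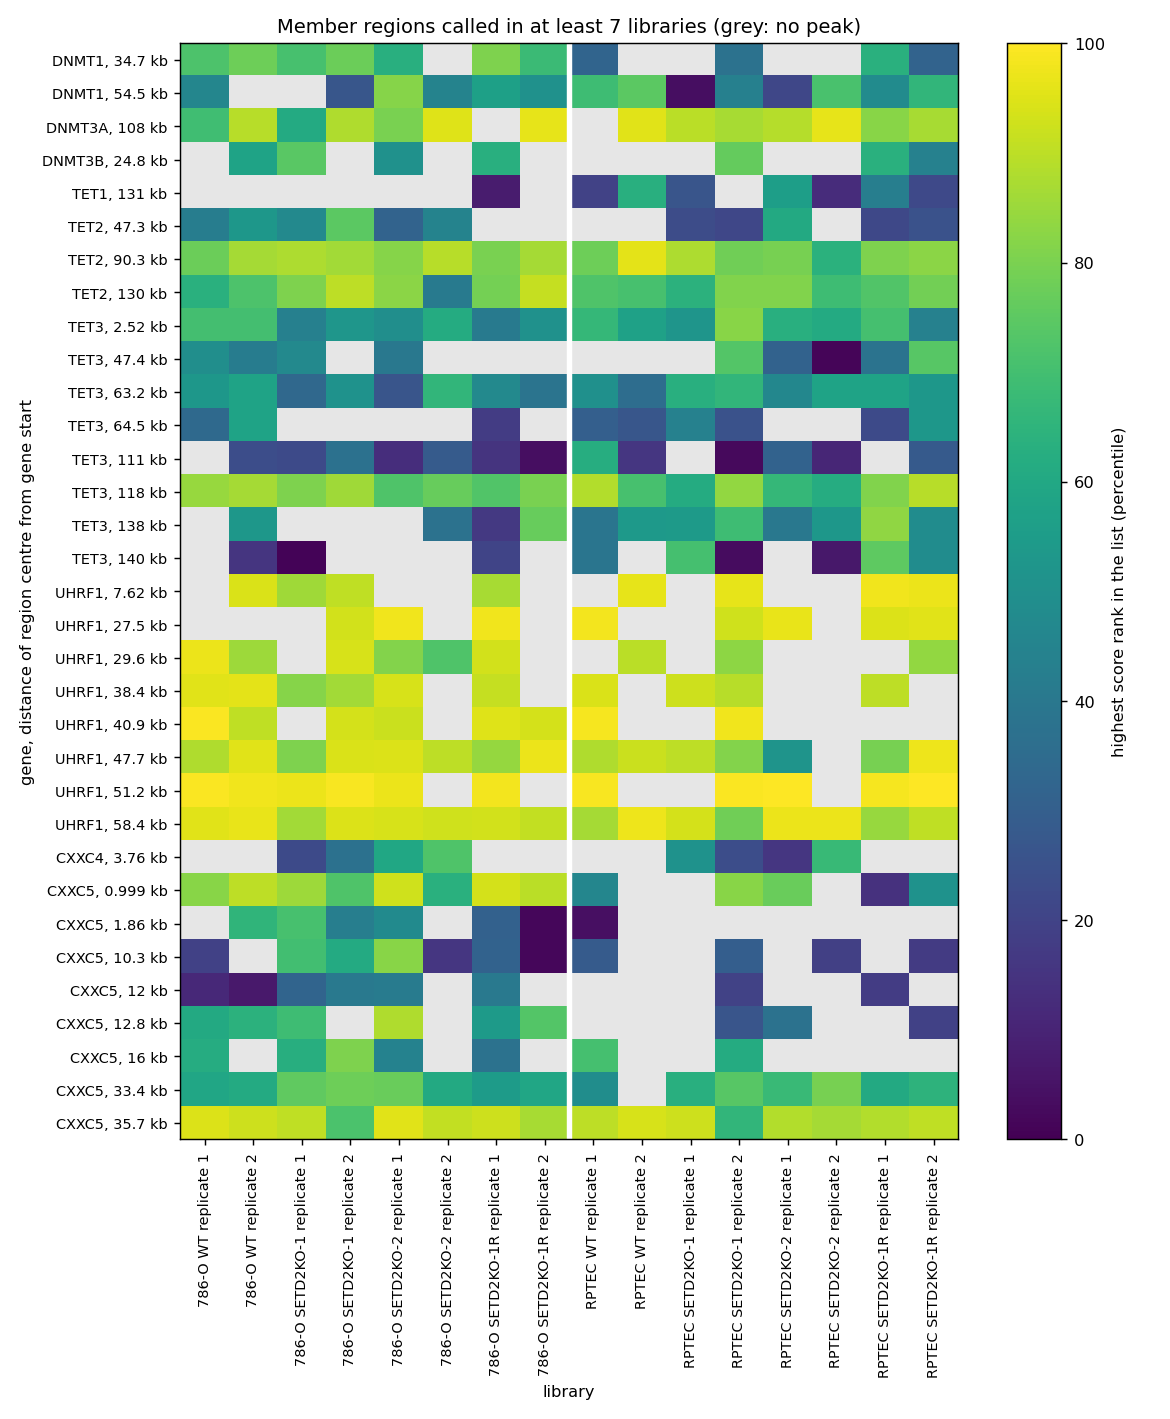
Score ranks in the 33 member regions called in at least 7 libraries, with regions as rows (gene and distance of the region centre from the gene start in kb) and the 16 libraries as columns, coloured by the highest rank in the list (percentile) and grey where no peak was called. Rows filled across the plot include both TET2 regions at 90.3 and 130 kb and the last regions of UHRF1 and CXXC5, while the CXXC4 row is filled only in SETD2KO libraries.

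Together the 9 genes held 102 merged regions. The shares of all merged regions given beside them include regions outside protein-coding genes. Of these 7 were called in all 16 libraries, 6.86% against 4.24% of all merged regions, and 28 in 1 library, 27.5% against 37.2%. At the gene level 5 of 9 members were called in all 16 libraries, DNMT1, TET2, TET3, UHRF1 and CXXC5, against 34.5% of all genes. The remaining DNMT3A was called in 15, DNMT3B in 10, TET1 in 9 and CXXC4 in 8. Cell lines were both represented in 61 regions, 59.8% against 44.6% of all regions, while 27 were found in 786-O alone, 26.5% against 33.8%, and 14 in RPTEC alone, 13.7% against 21.6%.

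Score ranks also differed between the genes. Median ranks ran from the 21.9th percentile in TET1 and the 37.2nd in CXXC4, through 46.3 in TET3, 48.7 in DNMT3A, 59 in DNMT3B, 60.4 in CXXC5, 63.7 in TET2 and 71 in DNMT1, to 91.9 in UHRF1. Over the 605 member peaks the median was 59.6, against 52.3 for all peaks in protein-coding genes. Transcript levels were not among the files used here, so their part in the ranks was not tested.

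**Figure D4:**
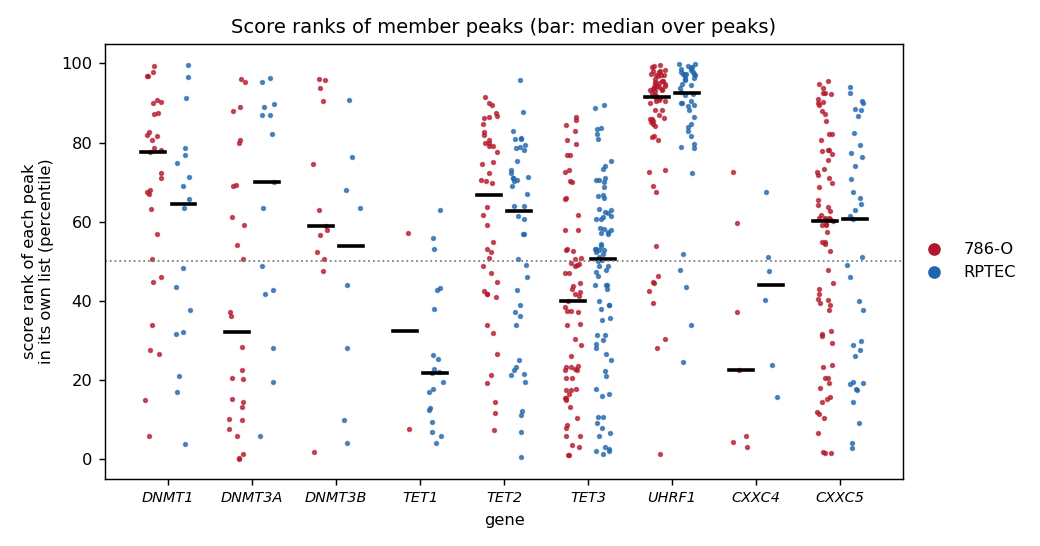
Score rank of each of the 605 member peaks in its own list (percentile), by gene, with 1 point per peak, red for 786-O and blue for RPTEC, a black bar at the median of each cell line and a dotted line at 50. UHRF1 peaks lie near the top, with a median of 91.9 over both cell lines, and TET1 peaks mostly below the middle, with 21.9.

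Along the gene body, 23.6% of member summits lay in the last 10% of the length, close to 20.7% of all summits in protein-coding genes, and 9.42% in the first 10% against 13.4%. TET1, TET2, DNMT3A and CXXC5 had 36.4%, 35.2%, 34.9% and 33.9% in the last 10%. UHRF1 had 20.4%, TET3 18.1%, DNMT3B 4.76% and DNMT1 2.04%. CXXC4 had none there, and all 13 of its summits fell in the second 10% step, where 7.11% of all summits lay. Exons were not used here, so position is relative to the whole gene body including introns.

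**Figure D5:**
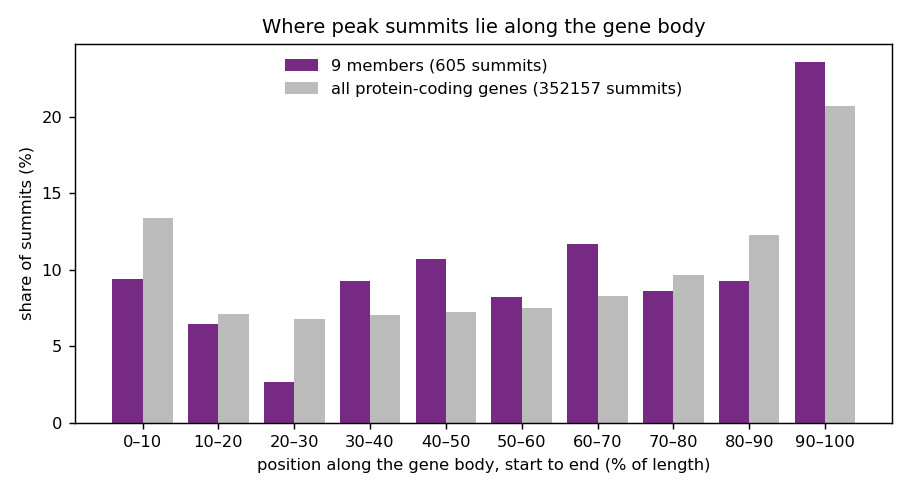
Share of peak summits (%) in each 10% step of the gene body from start to end, for the 605 member summits and the 352157 summits in all protein-coding genes. Both are highest in the last step, at 23.6% and 20.7%.

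Other genes of the pathway were read through lists of related proteins. Of 7 other CXXC zinc finger proteins, all were called in all 16 libraries, as were 34.5% of all genes. Between cell lines 0 of the 7 passed the test, against 3.44% of all genes called higher and 1.92% lower in 786-O, and in both SETD2 comparisons no gene of any kind passed. KDM2A, an H3K36 demethylase, had 9 and 11 peaks in RPTEC WT and 9 and 9 in SETD2KO-1R against 6 and 6 in SETD2KO-1 and 5 and 6 in SETD2KO-2. KMT2A, an H3K4 methyltransferase, had 9 and 9 in RPTEC WT and 12 and 9 in SETD2KO-1R against 8 and 7 in SETD2KO-1 and 6 and 4 in SETD2KO-2. Neither gene separated the groups in 786-O, and such a fall in RPTEC is the pattern of 1.41% of all genes. The median difference of the list in RPTEC was -1.5 peaks, against -0.25 over all genes, and in 786-O -0.25 against 0.

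All 11 methyl-CpG readers had a peak, as did 67% of all protein-coding genes, and 8 of them in all 16 libraries, against 34.5% of genes with a peak. Between cell lines 0 of the 11 passed the test. Of 9 methylation partners, 6 had a peak, a share like that of all genes, and CDCA7, DPPA3 and ZFP57 had none. DNMT3L, the cofactor of DNMT3A and DNMT3B, had 2 and 1 peaks in 786-O WT, 2 and 2 in SETD2KO-1R and 0 in all 4 SETD2KO libraries, and 0 in every RPTEC library. It was named for this separation, so no test is given, and such a fall in 786-O is the pattern of 0.901% of all genes. Of 12 genes of demethylation and repair 10 had a peak. Of these 10, SMUG1, a glycosylase that excises oxidized pyrimidines, was called higher in 786-O, as were 3.44% of all genes. It had 4.62 ± 1.6 against 1.25 ± 1.04 peaks (SD, n = 8 each, exact permutation p = 0.000466, adjusted p = 0.0187). Its cell lines overlapped, at 3 to 7 and 0 to 3 peaks, and no gene was called with lines as units.

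By the rank of likeness over 16 libraries, UHRF1 was most like PPP1R3F (r = 0.936), DNMT3B like LRRC45 (0.928), CXXC5 like DTX2 (0.92) and DNMT1 like TCOF1 (0.915). TET1 was most like ZFHX2 (0.904), CXXC4 like TMPRSS11D (0.896), DNMT3A like SFXN5 (0.866), TET2 like HOXA10 (0.862) and TET3 like CLIP2 (0.825). These are the highest Pearson r of log2(peaks + 1) among all protein-coding genes, and the libraries share list length.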

How the data were processed

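m6A peaks of 16 IP libraries were analysed, 8 of 786-O and 8 of RPTEC, as 4 lines with 2 libraries each. The 16 Input samples have no list of their own here. Per the methods, the authors fragmented total RNA with an E. coli RNA spike-in, enriched it with an anti-m6A antibody, used STAR for alignment and HTSeq for counting, applied spike-in scaling, and ran MACS2 on each IP library over its Input. The labels name hg38. The deposited values are a whole-number score per peak and the other value used, the summit position. Its scale is not given in the sources used here, and it gave only the rank of a peak in its own list (percentile).

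Gene bodies and start windows came from RefSeq GRCh38.p14, with 20033 protein-coding genes and strand from the start windows. Peaks were counted per gene and library, and peaks of all 16 lists were merged into regions where they overlapped. Peak numbers were compared for every gene by two-sided exact permutation tests (70 arrangements for 4 against 4 libraries, 12870 for 8 against 8, 4900 for the difference of differences) with Benjamini-Hochberg adjustment. The unit was the library, while SETD2 status is a property of the line. The members were picked with their calls known, so their values are given with no p. The members and lists were chosen with earlier results of these data known.

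The genes named besides the members were those of 4 lists (other CXXC proteins, methyl-CpG readers, methylation partners, demethylation and repair) whose groups did not overlap between SETD2KO and SETD2-expressing libraries, up to 4 per list with the largest gap between cell lines among those whose groups did not overlap, the most similar gene of each member called in at least 6 libraries, and SETD2. No list gene had non-overlapping cell lines, and SMUG1 is named as the 1 list gene past the threshold. Markers of renal epithelial, immune, endothelial and fibroblast cells were read too.

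Alternatives were the upper 50% of each list, equal list lengths, summits, overlap of 50 bp, base pairs covered, peaks per 10000 of the list, called or not (Fisher's exact test), peaks within 100 bp merged, a replicate block, each library left out, genes called in at least 2 libraries, each clone alone, lines as units, separate merging and regions covered by at least 50%. The tests were checked on simulated data. Permutation and Fisher's tests used SciPy 1.17.1 and NumPy 2.4.6 in Python 3.11.15, tables used pandas 2.3.3, and figures were drawn with Matplotlib 3.10.9. A further marker gene that was read is not reported here.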

Additional observations from a re-analysis of the deposited data

Results flagged for a closer look

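In 5 of 34 groups of 4 libraries, 1 library stood apart in peak number by Dixon's test, which chance alone gives in about 1 of 20 groups, and small whole numbers with ties pass it easily. UHRF1 had 12 peaks in 786-O WT replicate 1 against 8 in each of the other SETD2-expressing libraries. CXXC4 had 1 peak in 786-O SETD2KO-1 replicate 2 against 2 in the other SETD2KO libraries. DNMT1 had 3 peaks in RPTEC SETD2KO-1R replicate 2 against 2 in the others of its group. TET1 had 1 peak in 786-O SETD2KO-2 replicate 2 and 1 in 786-O SETD2KO-1R replicate 1, against 0 in the other 786-O libraries of each group.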

How the results depend on the processing

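Of 603 recomputed member values, 516 belong to differences other than 0, of which 477 kept their direction, 20 changed sign and 19 became 0. The other 87 belong to differences of 0, and 60 of them left 0. Of 719 genes called between 786-O and RPTEC, the count was 125 with the upper 50% of each list, 430 with equal list lengths, 1525 by base pairs covered, 150 as called or not and 0 with lines as units (70 arrangements), and 648 to 929 with a library left out. The cause was not tested, except that 70 arrangements of line means give no p under 0.0286. Genes higher in 786-O were 64.3% of calls, 47.2% in the upper 50% of lists, 34.4% with equal list lengths, 76.7% by base pairs, 45.6% per 10000 peaks and 38% as called or not. Both SETD2 comparisons called 0 genes under all alternatives, at 0 to 0 with a library left out, which the small number of arrangements fixes and which says nothing of stability. The difference between them also called 0 genes. Regions of the 9 genes called in all 8 libraries of a cell line, summed over both, numbered 19, 20 with separate merging and 4 where at least 50% had to be covered.

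Signs that turned, in peaks, SETD2KO minus SETD2-expressing, were these. CXXC5 in 786-O (0.75) was -0.082 per 10000 peaks of the list, -0.5 with SETD2KO-1 alone and -1.33 to 2 with a library left out. In RPTEC, CXXC5 (0.25) was -0.5 with SETD2KO-2 alone and -1.17 to 1.17 with a library left out. DNMT3A in RPTEC (-0.25) was 0.25 in the upper 50% of lists, 0.25 as the share of libraries called and -0.917 to 0.75 with a library left out. TET3 in RPTEC (-0.5) was 0.124 per 10000 peaks, 0.25 with SETD2KO-1 alone and -1.92 to 0.417 with a library left out. For 786-O minus RPTEC, DNMT3A (1.62) was -0.125 with equal list lengths, and CXXC4 (0.125) was -0.25 with equal list lengths, -0.0416 per 10000 peaks and -0.0357 to 0.304 with a library left out.

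With the replicate block, which permutes libraries within a replicate number, 673 genes differed between cell lines and 0 by SETD2 status in either. Libraries that share a replicate number did not deviate together, as correlations of replicate differences ran from -0.072 to 0.176 in 786-O and from -0.171 to 0.174 in RPTEC. The unknown depth behind a peak limits all counts, since a missing peak has no bound.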

Other observations

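Some markers of other cell types separated the SETD2 groups in RPTEC. CDH5, an endothelial cadherin, had 1 peak in each of the 4 RPTEC SETD2-expressing libraries and 0 in all others. PDGFRB, a growth factor receptor of fibroblasts and pericytes, ran the other way in RPTEC, with 1 and 1 peaks in SETD2KO-1, 2 and 1 in SETD2KO-2 and 0 in all 4 SETD2-expressing libraries, while in 786-O the groups overlapped. Such patterns in RPTEC are those of 1.41% (lower) and 1.01% (higher) of all genes. Fibroblast markers summed to 0 to 4 peaks per library in 786-O, and in RPTEC to 1 to 5 in SETD2KO and 0 to 2 in SETD2-expressing libraries. Renal epithelial markers summed to 35 to 63 peaks in 786-O and 24 to 65 in RPTEC.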
